A study of Mus musculus with 15 samples.

Results

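The genes of the mitochondrial genome were followed through 15 libraries of mouse skeletal muscle. They were taken as every gene whose name begins with mt- in the deposited table that holds the control and knockout samples, and were joined to the other table by gene identifier. There were 37 of them among 55536 genes: 13 protein genes, 2 ribosomal RNA (rRNA) genes and 22 transfer RNA (tRNA) genes. The study sequenced poly(A) RNA, with a directional kit, from skeletal muscle of male mice 2 months old. The 5 control mice were wild type, 5 mice were labelled PdgfrB Knock Out (knockout below) and 5 were labelled PdgfrB D489V (D489V below), an allele that the series' design calls constitutively active. The design describes both changes as specific to myogenin, a transcription factor of differentiating muscle cells, so other cells of the muscle were not targeted. The driver line, the strain and the muscle sampled are not given in the sources used here.

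The mitochondrial genome is a small circle inside the organelle. It is transcribed from both strands as long precursors, and tRNAs lying between the other genes are cut out to release the separate RNAs. Its proteins are core subunits of the respiratory chain and of the ATP synthase, and its rRNAs and tRNAs serve the mitochondrial ribosome that makes them. Most respiratory subunits, and the proteins that copy, transcribe and process mitochondrial DNA and RNA, are encoded in the nucleus. Muscle fibres differ widely in how much they rely on mitochondrial respiration. Pdgfrb encodes a receptor tyrosine kinase of the cell surface.

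The genes lie close together and some share bases, which bears on how reads could be assigned to them. On GRCm38, in the annotation of GENCODE release M21, 12 protein genes and 14 tRNA genes are on the plus strand of the mitochondrial chromosome, and mt-Nd6 and 8 tRNA genes are on the minus strand. The first 2 sequences below are mt-Atp8 (chrM:7766-7969, plus strand) and the end of mt-Nd4l (chrM:10134-10173, plus strand), with the bases shared with the next gene in capitals: 43 bases shared with mt-Atp6 and 7 shared with mt-Nd4. The next 4 lines show the only bases at which the coding sequences of mt-Co1 and mt-Nd3 differed from aligned transcripts of a nuclear copy on the minus strand of chromosome 1, with the differing base in capitals. They are mt-Co1 at chrM:6390-6408, its copy Gm29216 at chr1:24616170-24616188, mt-Nd3 at chrM:9459-9476 and its copy Gm28438 at chr1:24613102-24613119. The last 4 are the tRNA genes that could be tested in all comparisons, with the anticodon in capitals: mt-Tp for proline (chrM:15356-15422, minus strand), mt-Tq for glutamine (chrM:3772-3842, minus strand), mt-Tw for tryptophan (chrM:4950-5016, plus strand) and mt-Tt for threonine (chrM:15289-15355, plus strand). All were read from the GENCODE M21 transcripts, 5′ to 3′ on the strand of the gene.
mt-Atp8: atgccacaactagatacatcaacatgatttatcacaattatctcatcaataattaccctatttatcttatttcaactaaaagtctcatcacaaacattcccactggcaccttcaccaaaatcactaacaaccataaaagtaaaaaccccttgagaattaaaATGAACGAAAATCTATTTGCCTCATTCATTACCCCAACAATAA
mt-Nd4l, last bases: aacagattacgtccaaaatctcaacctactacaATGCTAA
mt-Co1: ggaAttgttttatccaact
Gm29216: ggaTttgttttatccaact
mt-Nd3: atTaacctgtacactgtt
Gm28438: atCaacctgtacactgtt
mt-Tp: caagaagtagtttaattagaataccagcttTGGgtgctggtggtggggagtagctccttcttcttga
mt-Tq: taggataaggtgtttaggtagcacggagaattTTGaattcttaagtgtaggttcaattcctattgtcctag
mt-Tw: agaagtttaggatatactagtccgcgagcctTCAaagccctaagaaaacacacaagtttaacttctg
mt-Tt: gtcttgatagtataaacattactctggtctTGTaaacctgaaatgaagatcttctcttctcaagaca

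The values were normalized counts per gene, rounded to whole numbers, which summed to 29815559 to 36489777 per sample. All 10 muscle fibre markers had values in every sample, with summed levels of 5297214 to 7347709. Pdgfrb itself had values of 1673 to 1848 in controls, of 958 to 1628 in the knockout group and of 820 to 1062 in the D489V group, so its RNA was below the control range in both mutant groups. Library knockout 3 went against its label of male: Xist, the RNA of the inactive X chromosome, was at 3165 there and at most 101 in the other samples. Library knockout 5 stood apart in the balance among mitochondrial genes, as described further on. Markers of lymphocytes also set samples apart: their summed level was 3844 in control 5, 1139, 3343 and 956 in knockout 3, 4 and 5, and 20 to 182 in the other 11 samples. Control 5 had the smallest mitochondrial share, and the part of these cells in the results was not tested. In bulk muscle, fewer cells of a type and less RNA per cell cannot be told apart. Nothing in the labels says more about the independence of the animals, so p-values measure the spread between these samples.

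The share of each library that came from the mitochondrial genome spread more widely among the controls than among either mutant group, although spreads were not tested. The 37 genes held 7.54, 6.38, 4.95, 3.64 and 3.15% of the column total in controls 1 to 5. They held 4.71, 3.56, 4.85, 4.09 and 6.42% in knockout 1 to 5, and 5.38, 5.99, 6.07, 5.13 and 4.38% in D489V 1 to 5. All mutant samples lay within the range of the controls. The means were 5.13 ± 1.84% in controls, 4.73 ± 1.08% in knockout and 5.39 ± 0.691% in D489V muscle (SD, n = 5 each). Without knockout 3 the knockout mean was 4.70%, and without knockout 5 it was 4.30%. The protein genes made up nearly all of it, with means of 4.79, 4.44 and 5.00% of the column total in the same order, and the rRNA genes followed with 0.339, 0.289 and 0.395%.

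Among the controls, the summed level of the organelle's protein genes spread more than the sum of their nuclear partners. The sum of the 13 protein genes was 2.38-fold higher in the highest control than in the lowest, 2088056 against 877583. The sum of nuclear-encoded subunits of the same respiratory complexes varied 1.18-fold, from 582851 to 689375. That sum does not give the spread of its single genes, which differed. Over all 15 samples Ndufs1 ran from 5886 to 20208, Cox6a1 from 510 to 1945 and Ndufb10 from 7331 to 9457. The ratio of the first sum to the second was 3.55, 3.19, 2.49, 1.70 and 1.39 in controls 1 to 5. It was 2.01, 1.59, 2.53, 1.90 and 2.67 in knockout 1 to 5 and 2.63, 2.88, 2.80, 2.40 and 2.06 in D489V 1 to 5. The 3 groups overlapped, with means of 2.47 ± 0.927, 2.14 ± 0.450 and 2.55 ± 0.331 (SD, n = 5 each).

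**Figure D1:**
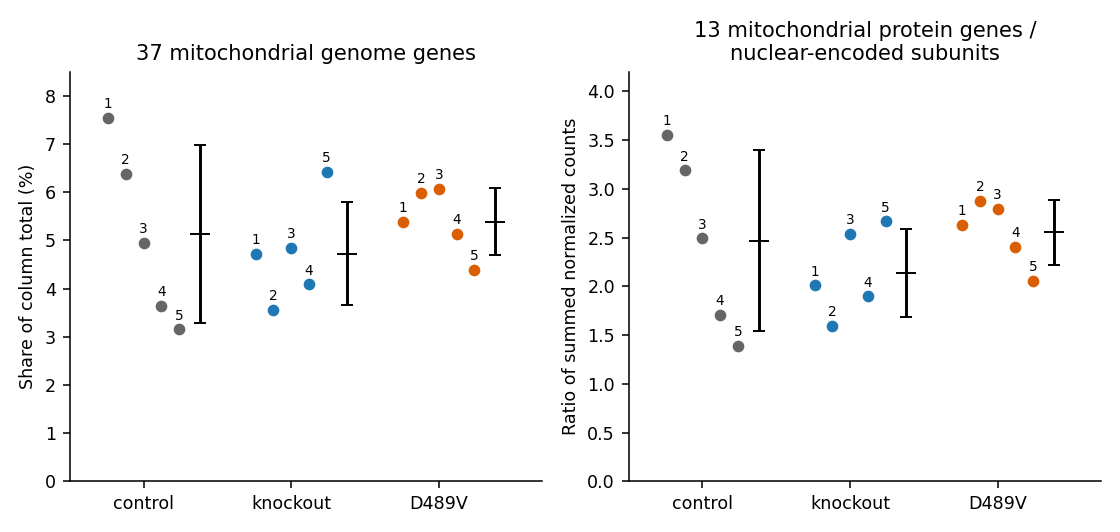
The left panel plots the 37 mitochondrial genome genes as a percentage of each sample's column total, and the right panel the summed normalized counts of the 13 mitochondrial protein genes divided by those of the nuclear-encoded respiratory subunits. Points are samples with their replicate numbers and bars are mean ± SD (n = 5); in both panels controls 1 and 5 are the highest and the lowest of all 15 samples.

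Fibre type, the regulators of mitochondrial biogenesis and markers of other cells also differed between the controls, and their part in the spread was not tested. The summed level of 9 markers of slow and oxidative fibres was 18355, 51857, 37884, 90117 and 196386 in controls 1 to 5, so the control with the largest mitochondrial share had the least of these RNAs and the control with the smallest share the most. The knockout samples spanned 9810 to 211061 and the D489V samples 41724 to 203786, so all groups overlapped. The order seen in controls did not recur in the mutants. D489V 3, at 203786, had the largest share of its group, 6.07%. Knockout 1, at 9810, had a share of 4.71%, and knockout 3, at 211061, one of 4.85%. The 16 regulators of mitochondrial biogenesis summed to 12525, 14854, 21018, 22743 and 18899 in controls 1 to 5. Adipocyte markers summed to 72392, 44271, 42317, 7632 and 9932 there, and brown adipocyte markers to 3298, 3321, 5295, 413 and 289. Endothelial markers summed to 19611, 17288, 14928, 13560 and 13940. Each of these sums was higher in controls 1 to 3 than in controls 4 and 5. In the mutant groups the brown adipocyte sum was lowest in knockout 5 (116) and D489V 3 (255), which had the largest shares of their groups.

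Among protein genes, levels per kilobase (kb) spanned several orders of magnitude. The 3 subunits of cytochrome c oxidase (complex IV), which passes electrons to oxygen, were far apart in this range. For mt-Co1 (chrM:5328-6872), its catalytic subunit, the mean over the 15 samples was 399804 normalized counts per kb, the highest of the genome. mt-Co2 (chrM:7013-7696), which accepts electrons from cytochrome c, was at 1470 per kb, 272-fold lower than mt-Co1. mt-Co3 (chrM:8607-9390) was at 1179 per kb. The only mitochondrially encoded subunit of complex III, mt-Cytb (chrM:14145-15288), was at 287457 per kb, next in order.

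The subunits of complex I, which takes electrons from NADH, showed the same split. mt-Nd1 (chrM:2751-3707) was at 177142 per kb, mt-Nd2 (chrM:3914-4951) at 139885, mt-Nd4 (chrM:10167-11544) at 81402 and mt-Nd5 (chrM:11742-13565) at 79720. The last 2 differed by less than their spread over samples, and all belong to the membrane arm that pumps protons. mt-Nd6 (chrM:13552-14070), the only protein gene on the minus strand, was at 8490 per kb, and it stood at 2.97, 2.80 and 2.90 per 1000 counts of the plus strand protein genes in control, knockout and D489V muscle. mt-Nd3 (chrM:9459-9806) was at 124 per kb and mt-Nd4l (chrM:9877-10173) at 77.4. Of the ATP synthase subunits, mt-Atp6 (chrM:7927-8607), part of the proton channel, was at 763 per kb and mt-Atp8 (chrM:7766-7969) at 30.1. mt-Atp8 was the lowest protein gene, with values of 3, 8, 4, 1 and 6 in controls, 10, 3, 7, 4 and 19 in knockout and 5, 6, 10, 5 and 1 in D489V 1 to 5. These last counts were too low to be tested in any comparison.

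The 6 low plus strand genes were neighbours. mt-Co2, mt-Atp8, mt-Atp6, mt-Co3, mt-Nd3 and mt-Nd4l lie one after another between mt-Co1 and mt-Nd4. All 6 fall within chrM:6390-11042, the stretch of 4653 bases from the first to the last base matched by 6 listed nuclear copies. These annotated pseudogenes lie on the minus strand of chromosome 1 (chr1:24611535-24616197) in the reverse order of coordinates. Only annotated transcripts were aligned, so the bases between the pseudogenes, with the tRNA genes, were not compared. In 4 of the 6 listed copies the transcripts had no mismatch to the mitochondrial gene: Gm28661 over 681 bases of mt-Co2, Gm10925 over 678 of mt-Atp6, Gm28437 over 783 of mt-Co3 and Gm28439 over the first 876 of mt-Nd4. The other 2, whose bases are printed above, had 1 each: A1066T in Gm29216, aligned with the last 483 bases of mt-Co1, and T3C in Gm28438, aligned with 345 bases of mt-Nd3. Positions are counted from 1 at the 5′ end of the mitochondrial gene, and its base comes first. A seventh, Gm10222, matched 294 bases of mt-Nd4l without mismatch and was added after the values were seen. No annotated transcript aligned with mt-Atp8 over 200 bases or more, the minimum of the search, and mt-Atp8 is only 204 bases long. Gm10925 aligned with mt-Atp6 from its first base, so it also matched the 43 bases that mt-Atp6 shares with mt-Atp8.

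Protein genes wholly inside that stretch had values of 1 to 2261 in the 15 samples, and those of the plus strand outside it or partly inside had 54127 to 815997. Per kb, the lowest of the second group was 54.2-fold above the highest of the first. The pseudogenes were also low, with means per kb of 3802 for Gm10925, 2438 for Gm28661, 2269 for Gm28437, 106 for Gm28438 and 78.9 for Gm10222. Gm10925 had 3.05 to 6.75 times the value of mt-Atp6 in the same sample, Gm28661 1.40 to 1.84 times that of mt-Co2 and Gm28437 1.42 to 2.32 times that of mt-Co3. mt-Co1 and mt-Nd4, which have 31.3% and 63.6% of their length in the stretch, were as high as genes outside it. How reads matching both places were counted is not given in the sources used here, so the levels of these 6 genes, and those of mt-Co1 and mt-Nd4 in part, are uncertain and their part in the split was not tested. Reads of mt-Atp8 and mt-Atp6, or of mt-Nd4l and mt-Nd4, that cover only the shared bases shown above cannot be told apart either.

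**Figure D2:**
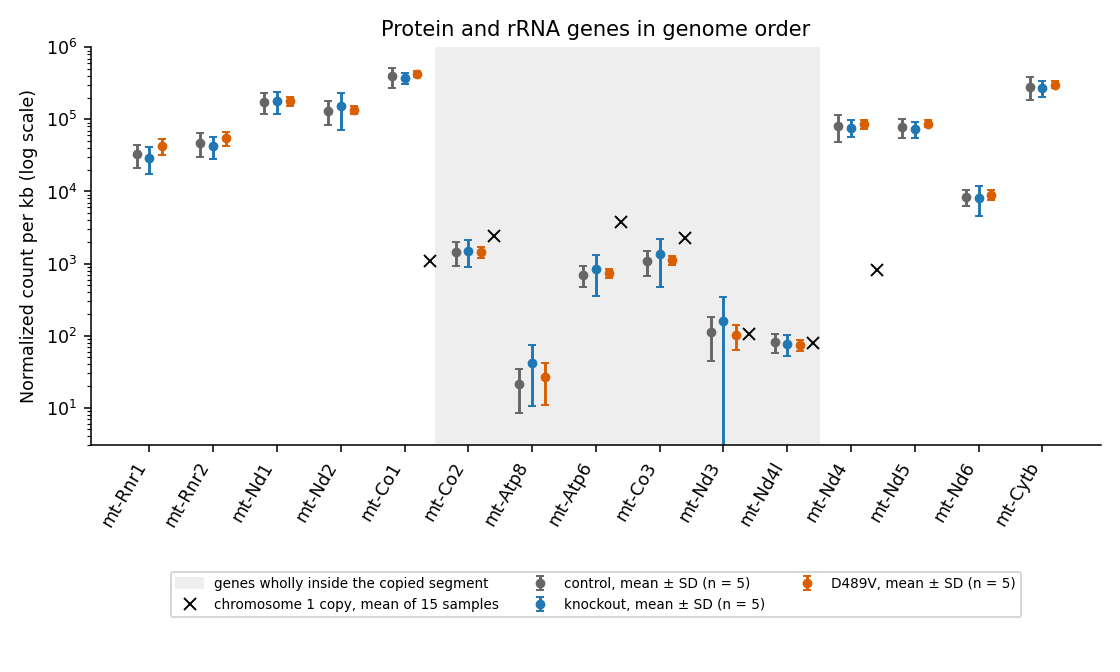
Normalized counts per kb, on a log axis, of the 13 protein and 2 rRNA genes in genome order, as mean ± SD of each group (n = 5), with crosses for the mean over 15 samples of the matching pseudogenes on chromosome 1. The shaded genes lie wholly inside the copied stretch and are all at means over samples of 1470 per kb or less, and the lower bar of mt-Nd3 in knockout samples runs off the axis because the SD exceeds the mean.

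The 2 rRNA genes lay between the high and the low protein genes. mt-Rnr2 (chrM:1094-2675), the large ribosomal subunit's RNA, was at 48245 per kb and mt-Rnr1 (chrM:70-1024), the small subunit's, at 34958. In libraries of poly(A) RNA these values do not rank rRNAs or tRNAs against mRNAs by their amount in the cell. Of the tRNA genes, 9 were listed at 0 in all 15 samples: mt-Tf, mt-Tv, mt-Tn, mt-Tk, mt-Tg, mt-Tr, mt-Th, mt-Ts2 and mt-Tl2. Of the 22, 15 never exceeded 10. The highest was mt-Tp, at 2149 per kb, followed by mt-Tq at 720, mt-Tt at 686 and mt-Tw at 510. mt-Tp and mt-Tt are neighbours at the end of the genes, after mt-Cytb.

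Between knockout and control muscle, no mitochondrial gene passed the test (limma, Benjamini-Hochberg adjusted p under 0.05 over all genes). The 18 genes with enough signal were 12 protein, 2 rRNA and 4 tRNA genes, and their adjusted p ran from 0.366 to 0.998. None reached an unadjusted p under 0.05 by limma or by the exact permutation test, none separated the groups, and no other tool was run. Of all 15234 genes tested, 0.00656% were called, 15.1% had an unadjusted p under 0.05 and 2.24% did not overlap between the groups. mt-Co1 was at 815997, 777057, 634787, 462007 and 366035 in controls 1 to 5 and at 660719, 472521, 598471, 480139 and 679917 in knockout 1 to 5. The knockout values all lay inside the control range, and the log2 change was -0.03 with a 95% interval of -0.72 to 0.65, which leaves room for changes in either direction. The median log2 change was 0.01 over the protein genes, -0.15 over the rRNA genes and 0.45 over the tRNA genes, beside 0.01 over all genes. The tRNA genes with the largest values were mt-Tp at 0.81 (SE 0.445, limma adjusted p = 0.382) and mt-Tw at 0.65 (SE 0.340, adjusted p = 0.366). Both the mt-Tp value and the tRNA median rested in part on control 5: without it mt-Tp was at 0.38 (limma adjusted p = 0.488) and the tRNA median at 0.20. The protein median took either sign, from -0.16 without control 5 to 0.16 without control 1.

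Between D489V and control muscle the result was the same for the 19 genes tested, which here included mt-Ts1, a serine tRNA. None was called, with limma adjusted p from 0.634 to 0.958, and none had an unadjusted p under 0.05 by limma or the exact permutation test or separated the groups. Of all 15339 genes, 0.0587% were called, 9.43% had an unadjusted p under 0.05 and 2.16% did not overlap. mt-Co1 was at 683700, 732977, 710976, 607201 and 582960 in D489V 1 to 5, inside the control range. Its log2 change was 0.18 (95% interval -0.42 to 0.78, limma adjusted p = 0.872). The D489V samples were closer together than the controls, with an SD of 65470 against 195174 for mt-Co1, a difference in spread that was not tested. The median log2 change was 0.13 over the protein genes, 0.34 over the rRNA genes and 0.18 over the tRNA genes, beside 0.00189 over all genes. One control set the direction of 2 of these medians: without control 5 the protein median was -0.06 and the tRNA median -0.12, while the rRNA median was 0.21. Without control 1 the protein median was 0.25. mt-Rnr1, with the smallest p of the 19, was at 0.41 (SE 0.244, limma adjusted p = 0.634).

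**Figure D3:**
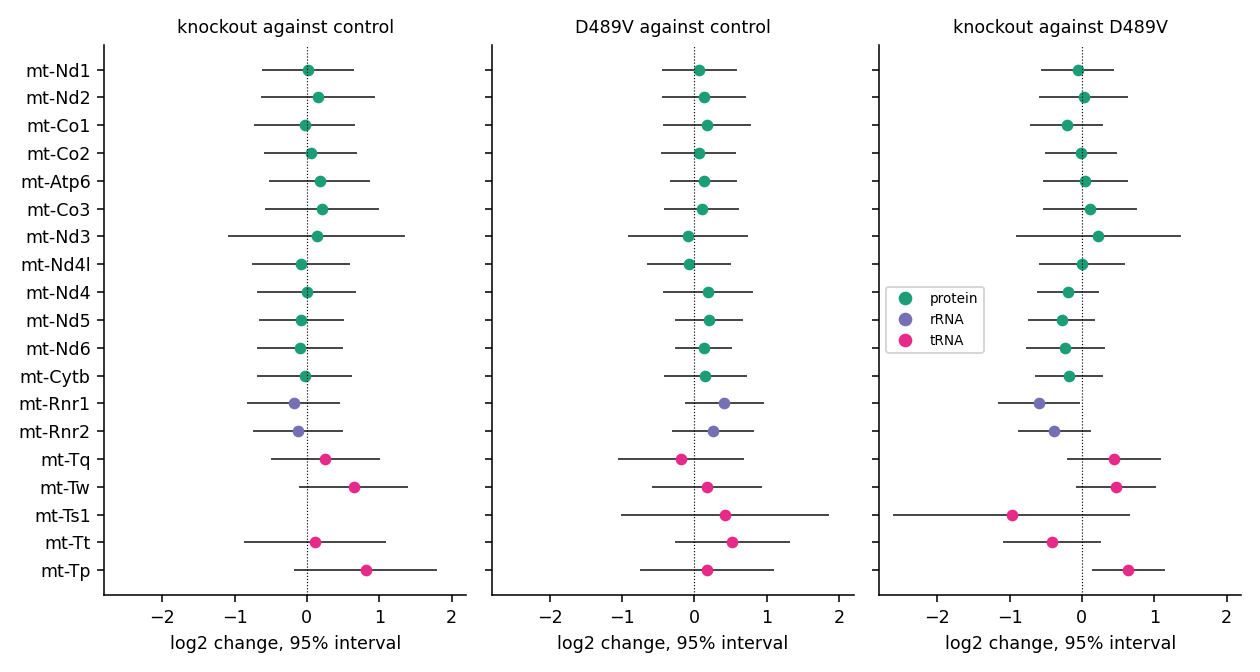
Log2 change with its 95% interval from limma for each mitochondrial gene tested, in the 3 comparisons, with colour for protein, rRNA and tRNA genes; positive values are higher in the group named first. Only mt-Rnr1 and mt-Tp in knockout against D489V have intervals that leave out 0, and neither passed after adjustment over all genes.

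Knockout muscle was also compared directly with D489V muscle. None of 19 mitochondrial genes was called, beside 20.8% of all 15299 genes tested. The 3181 genes called became 1398 without D489V 1, 1526 without D489V 2 and 1989 without D489V 3, with no mitochondrial gene among them. An unadjusted limma p under 0.05 was found for 2 of them, mt-Rnr1 and mt-Tp, and an exact permutation p under 0.05 for mt-Tp alone, beside 37.7% of all genes by limma. No mitochondrial gene separated the groups, beside 13.9% of all genes. The protein genes had a median log2 change of -0.03 (-0.26 without knockout 5) and the all-gene median was 0.000402, and mt-Co1 was at -0.21 (95% interval -0.70 to 0.28, limma adjusted p = 0.525).

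The rRNA genes and mt-Tp lay on opposite sides of 0 in this comparison. mt-Rnr1 was at 34524, 17965, 22940, 20119 and 44302 in knockout 1 to 5. In D489V 1 to 5 it was at 43978, 54236, 42762, 35885 and 27301, and in controls 1 to 5 at 46196, 39648, 26937, 21193 and 22791. Knockout 2, 3 and 4 lay below every D489V sample, while knockout 1 and 5 lay among them. The log2 change was -0.60 (SE 0.253, limma p = 0.036, adjusted p = 0.107; exact permutation p = 0.0873). Without knockout 5 it was -0.78 and passed, with a limma adjusted p of 0.043. Without knockout 3 it was -0.55 (adjusted p = 0.18).

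In mt-Rnr2, too, knockout 2, 3 and 4 lay below every D489V sample. It was at 80298, 49310, 58346, 49844 and 101554 in knockout 1 to 5, at 100214, 104894, 92438, 73356 and 61054 in D489V 1 to 5 and at 112374, 95127, 62244, 56191 and 47612 in controls 1 to 5. Its log2 change in knockout against D489V was -0.38 (SE 0.227, limma adjusted p = 0.243). It was -0.34 (adjusted p = 0.351) without knockout 3 and -0.54 (adjusted p = 0.0936) without knockout 5. The ratio of mt-Rnr2 to mt-Rnr1 was 2.29 to 2.74 in knockout samples and 1.93 to 2.28 in D489V samples. These ranges were only just apart (2.292 in knockout 5, 2.279 in D489V 1), and 13.9% of all single genes did not overlap in this comparison. The ratio was 2.09 to 2.65 in controls, which overlapped both. Both rRNAs together gave 7.07 ± 0.847 counts per 100 counts of the protein genes in controls, 6.43 ± 0.822 in knockout and 7.83 ± 1.02 in D489V muscle (SD, n = 5 each). These ratios are descriptions, with no test.

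mt-Tp, the tRNA for proline, had the strongest single result. It was at 198, 149, 130, 164 and 318 in knockout 1 to 5, at 87, 124, 134, 126 and 117 in D489V 1 to 5 and at 88, 152, 198, 145 and 30 in controls 1 to 5. Only knockout 3 lay within the D489V range, and the controls spanned from below the D489V samples to the second highest knockout value. The log2 change in knockout against D489V was 0.64 (SE 0.223, limma p = 0.0134, adjusted p = 0.0584; exact permutation p = 0.0159). Without knockout 3, the library that went against its label, it was 0.76 and passed with a limma adjusted p of 0.0401; without knockout 5 it was 0.44 with an adjusted p of 0.0942. mt-Tw was at 49, 46, 29, 36 and 55 in knockout 1 to 5, at 25, 31, 41, 21 and 36 in D489V 1 to 5 and at 37, 32, 24, 40 and 11 in controls 1 to 5, with a log2 change of 0.47 (adjusted p = 0.18). mt-Tt went the other way, at -0.41 (adjusted p = 0.345), so the tRNA genes did not share a direction.

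**Figure D4:**
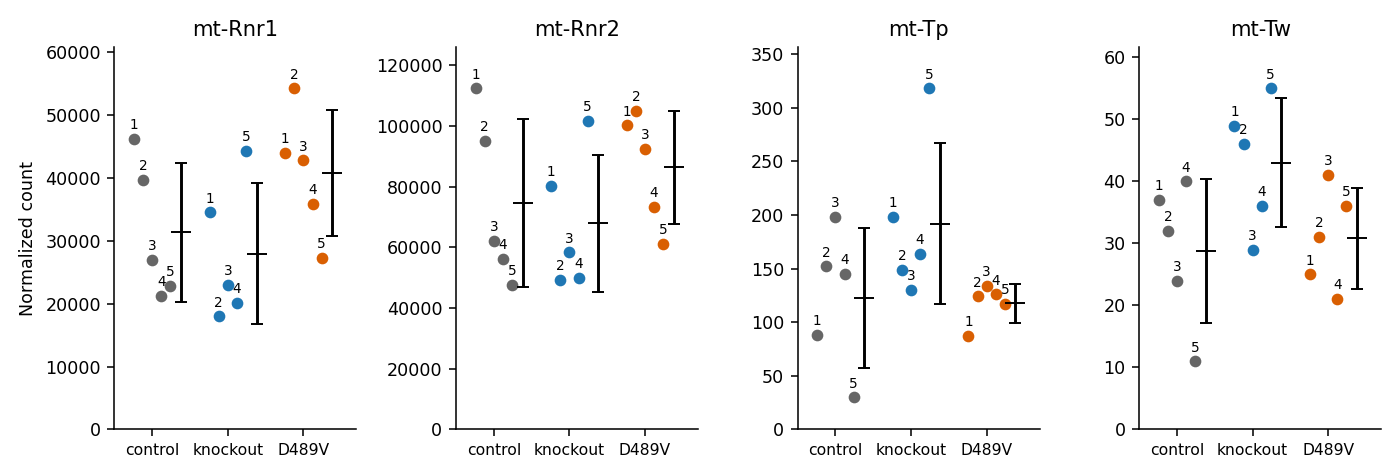
Normalized counts of mt-Rnr1, mt-Rnr2, mt-Tp and mt-Tw in each sample, on axes that start at 0, with replicate numbers at the points and bars for mean ± SD (n = 5). For mt-Tp, 4 of 5 knockout samples lie above every D489V sample, and for the rRNAs knockout 1 and 5 lie among the D489V samples.

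The balance among the protein genes was similar in most libraries. mt-Co1 made up 40.7% of the 13 protein genes on average, mt-Cytb 21.5%, mt-Nd1 11.1%, mt-Nd5 9.59%, mt-Nd2 9.36% and mt-Nd4 7.27%. Knockout 5 departed from this, in genes that were picked out after their values were seen. mt-Nd2 was at 302318 there and at 69192 to 194337 in the other samples, or 445 per 1000 counts of mt-Co1 against 189 to 250. Within the copied stretch, mt-Co3 was at 2261 against 491 to 1206, mt-Nd3 at 168 against 19 to 80, mt-Atp6 at 1160 against 315 to 667 and mt-Co2 at 1725 against 596 to 1456. mt-Nd4l, also in the stretch, did not depart, at 30 against 14 to 32. Outside the stretch, mt-Nd1 was highest in knockout 5 at 261518 against 104195 to 235503, and mt-Nd6 at 7150 against 2447 to 5807. mt-Co1 itself, at 679917, was inside the range of the others. As a share of the 13 protein genes it was the lowest of all samples, at 34.5% against 39.1% to 44.2%. Of the 20 mitochondrial genes above 0 in every sample, 11 were highest in knockout 5, and 13 had their highest ratio to mt-Co1 there. How often knockout 5 was highest over all genes was not counted, so these numbers have no background. Knockout 5 also had the most genes above 0 of the 15 samples, 23783. The 6 genes of the stretch summed to 2.72 per 1000 protein gene counts in knockout 5, beside group means of 1.58 ± 0.123 in controls and 1.5 ± 0.105 in D489V samples (SD, n = 5 each). The pseudogene Gm10925 was at 5783 in knockout 5 and had a mean of 2578 over all samples, and Gm28437 was at 4371 with a mean of 1777. Gm28661 and Gm28438 were also highest there, at 3040 and 104. Other copies of the same block were not: Gm29216 was at 681, Gm28439 at 870 and Gm10222 at 19, each below its highest value of 768, 1149 and 39.

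**Figure D5:**
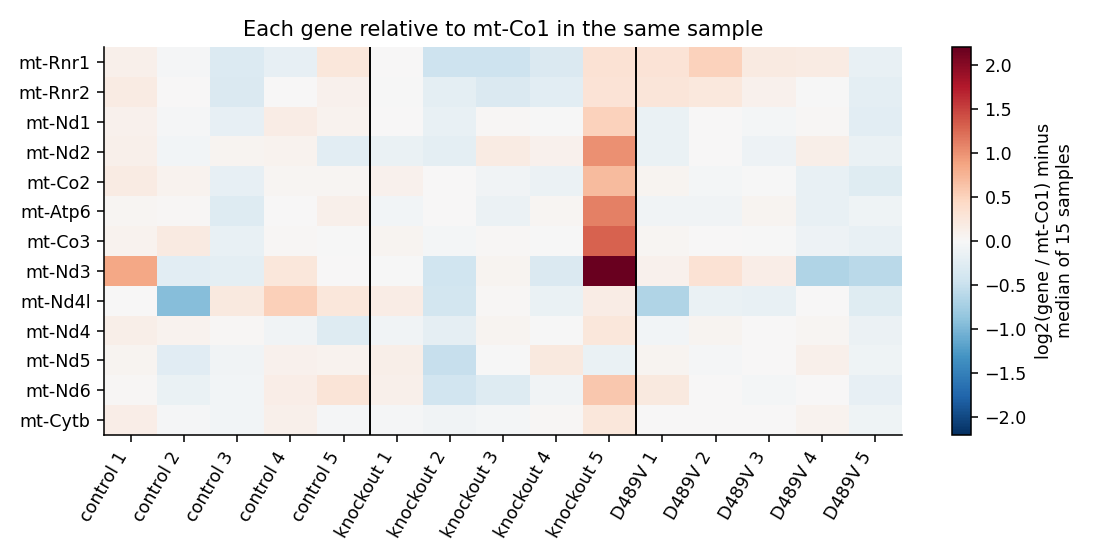
Each cell is log2 of a gene's value divided by that of mt-Co1 in the same sample, minus the gene's median over the 15 samples; red is above the median and blue below, and columns are samples in their groups. The column of knockout 5 is reddest for mt-Nd3 (2.18), mt-Co3 (1.30), mt-Atp6 (1.10), mt-Nd2 (1.01) and mt-Co2 (0.69). It is also above the median for mt-Nd6 (0.59), mt-Nd1 (0.51), mt-Rnr1 (0.32), mt-Rnr2 (0.30), mt-Cytb (0.26), mt-Nd4 (0.25) and mt-Nd4l (0.17). Only mt-Nd5 (-0.145) is below it.

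Some nuclear genes that maintain, transcribe and process mitochondrial DNA and RNA were called between the mutant groups, in shares that were near or above that of all genes and fell when some single libraries were left out. Against controls, no gene of these lists was called in either mutant group, in the fit given here or under any alternative. Few genes of any kind were called in this fit, 0.00656% of all for knockout and 0.0587% for D489V. At an unadjusted limma p under 0.05, knockout against control had 7 higher and 1 lower of 24 maintenance and transcription genes. It had 3 higher of 32 RNA processing genes and 7 higher and 1 lower of 16 biogenesis regulators, beside 15.1% of all genes. D489V against control had 1, 1 and 0, beside 9.43%. In knockout against D489V, 6 of 24 genes for maintenance and transcription of mitochondrial DNA rose (were higher in knockout) and none fell, or 25% beside 20.8% of all genes, a share near the background. The 5 with the smallest p were Mterf2, of the transcription termination factor family (log2 change 0.76, limma adjusted p = 0.00624), the elongation factor Tefm (0.52, adjusted p = 0.00855), Tfb1m, which methylates the small rRNA (0.61, adjusted p = 0.0106), Tfam, which packages mitochondrial DNA (0.28, adjusted p = 0.0342), and the helicase Twnk (0.44, adjusted p = 0.0412). The median log2 change of the list was 0.14. Leaving out knockout 1, 3 or 5 or D489V 1, 2 or 3, one at a time, left 3 calls (12.5%), beside 9.26% to 16.1% of all genes in those fits.

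Of 32 genes for mitochondrial RNA processing, 9 rose and 1 fell, or 31.2%, with a median log2 change of 0.27. Lrpprc, which stabilises mitochondrial mRNAs, was at a mean of 3377 in knockout and 2201 in D489V muscle (log2 change 0.65, limma adjusted p = 0.00946). Fastkd2, needed for the large rRNA, rose by 0.66 (adjusted p = 0.0108), the ribosomal protein Ptcd3 by 0.47 (adjusted p = 0.0225), the rRNA methyltransferase Mrm1 by 0.57 (adjusted p = 0.0266) and Trnt1, which adds the CCA end of tRNAs, by 0.38 (adjusted p = 0.0303). The gene that fell was Hsd17b10, a subunit of the enzyme that cuts the 5′ ends of mitochondrial tRNAs, at -0.28 (adjusted p = 0.0303). The calls of this list numbered 4 without knockout 1, 6 without knockout 3, 4 or 5, 5 without D489V 3, and 2 without D489V 1 or D489V 2. Those 2 calls were 6.25% of the list, below the 9.26% and 10.1% of all genes in the same fits, and the 4 without knockout 1 were 12.5% beside 16.1%.

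Of 16 regulators of mitochondrial biogenesis, 6 rose and none fell, or 37.5%, with a median log2 change of 0.31. They included Nrip1, a transcriptional corepressor (1.09, limma adjusted p = 0.0151), Perm1 (0.82, adjusted p = 0.0186) and the nuclear receptors Esrrg (1.09, adjusted p = 0.0258), Esrra (0.37, adjusted p = 0.0274) and Esrrb (1.28, adjusted p = 0.0348). Without knockout 3 there were 4 calls, without knockout 5 there were 2, without D489V 1 or D489V 2 there was 1, and without D489V 3 there were 3. Without knockout 5 that was 12.5% beside 14.2% of all genes, and without D489V 1 or D489V 2 it was 6.25% beside 9.26% and 10.1%, so the share was then below that of all genes. Summed over the list, the knockout samples had 20675 to 27463 and the D489V samples 14053 to 21009, with some overlap. Of 76 nuclear-encoded respiratory subunits, 2 rose, Ndufs1 of complex I (0.84, adjusted p = 0.0165) and Atp5a1 of the ATP synthase (0.56, adjusted p = 0.0311). Another 2 fell, the complex IV subunits Cox8a (-0.84, adjusted p = 0.00957) and Cox6a1 (-1.15, adjusted p = 0.0106). That is 5.26% of the list, below the share of all genes, with a median log2 change of -0.08, and the calls became 7 without knockout 1 and 9 without D489V 4. None of the 6 listed nuclear copies of mitochondrial genes was called in any comparison.

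Markers of other cells moved in the same comparison. All 6 endothelial and all 5 tested erythrocyte markers, 6 of 8 adipocyte markers and 5 of 6 Schwann cell and nerve markers were called. Those called were lower in knockout than in D489V muscle by the same limma test, which called 20.8% of all genes. The nerve markers called were 2 without knockout 1, 2, 3 or 5 or D489V 2, 1 without D489V 1, and 2 with the robust fit, with no variance trend or with the replicate block. Without knockout 3, and likewise without knockout 5, the counts of the other 3 lists were as given. Endothelial markers summed to 7819 to 12828 in the knockout group and to 15307 to 17936 in the D489V group. Erythrocyte markers summed to 3175 to 8038 and 12467 to 22177, adipocyte markers to 12936 to 23685 and 31322 to 106479, and nerve markers to 6163 to 9799 and 12180 to 49656, in the same order. None of these sums overlapped between the mutant groups, beside 13.9% of all single genes that did not overlap. Controls had 13560 to 19611, 5684 to 8422, 7632 to 72392 and 8740 to 14294, in the same order of lists. The endothelial sums of controls lay above those of knockout, and the erythrocyte sums below those of D489V samples. The adipocyte and nerve sums of controls overlapped both mutant groups. Of the lymphocyte markers, all 4 tested had a log2 change above 0, with a median of 1.42, and none was called. None of the 10 muscle fibre markers was called. The part of these cells in the values of the mitochondrial genes and their nuclear partners was not tested.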

How the data were processed

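The unit of the deposited values is a score, namely normalized counts per gene in whole numbers, per the name of the tables. Trim Galore 0.6.0, cutadapt, FastQC, STAR 2.7.0e, DESeq2 1.26.0 and GRCm38 are named in the submitters' processing notes. The counting tool, its strand setting and its treatment of reads matching several places are not given in the sources used here. The 2 tables held identical values for the 5 controls, and the median ratio of a sample to the common reference was 1.0069 to 1.0097 in all 15 samples, so they were on one scale. Reads assigned to genes were estimated at 25715920 to 39613167 per sample from the gaps that rounding leaves. By the same estimate, whole reads could not be recovered in 7 samples, so count tests were not run.

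Groups came from the genotype labels. Each comparison of 5 with 5 samples was fitted over all genes with limma 3.58.1 (R 4.3.3), with a variance trend and two-sided p. The fit used log2(value + 1), which understates changes of low genes. A gene was tested if 5 samples or more of the 10 had a value of at least 10. Genes with a Benjamini-Hochberg adjusted p under 0.05 were called. Intervals are 95% intervals of the fit. The fit was tested on simulated data. Exact permutation tests were two-sided, with 0.00794 the smallest p possible. Members and lists were chosen with earlier results of these data known. Values in every sample are given for genes called, with an unadjusted p under 0.05 or at the ends of the levels per kb. Of the lists, at most 5 called genes with the smallest p are named, and counts of 5 or fewer by name. mt-Tw and the genes of knockout 5 were added after their values were seen. Identifiers of all 55536 genes matched GENCODE M21. Copies were searched with blastn 2.17.0+ at 90% identity or more over 200 bases or more among annotated transcripts, and anticodons behind a T between bases 25 and 40 of each tRNA, with 1 match each. Alternatives were the scaling, pseudocount, filter, robust fit, array weights, a fit over all samples, a replicate block and leaving out each sample.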

Additional observations from a re-analysis of the deposited data

Results flagged for a closer look

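In 93 groups of 5 values, 4 had 1 sample whose gap to its nearest neighbour was above 0.71 of the group's range, and chance gives about 1 in 20 such groups, or 4.65 here. Of these, 3 were library knockout 5. Its log2(value + 1) of mt-Atp6 was 10.18, with the other knockout samples at 8.56 to 8.98. Its log2(value + 1) of mt-Nd3 was 7.40, with the others at 4.32 to 5.21. Its sum of the 6 genes inside the copied stretch was 2.72 per 1000 counts of the 13 protein genes, with the others at 1.47 to 1.66. The fourth was D489V 1, in which mt-Nd6, the minus strand protein gene, was at 3.4 per 1000 counts of the plus strand protein genes, with the other D489V samples at 2.66 to 2.85.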

How the results depend on the processing

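No mitochondrial gene was called against controls under any of 21 alternatives, for either mutant. In knockout against D489V, quantile normalization called 3: mt-Rnr1 at -0.77 (limma adjusted p = 0.0442), mt-Rnr2 at -0.62 (adjusted p = 0.0425) and mt-Tp at 0.73 (adjusted p = 0.0405). Array weights called 2, mt-Rnr1 at -0.81 (adjusted p = 0.0284) and mt-Tp at 0.61 (adjusted p = 0.0384), and leaving out 1 sample called 0 to 1. Over all alternatives the adjusted p was 0.0284 to 0.231 for mt-Rnr1, 0.0425 to 0.42 for mt-Rnr2 and 0.0384 to 0.248 for mt-Tp. The tested genes' log2 changes took the other sign in 49 of 374, 22 of 388 and 32 of 389 values in the 3 comparisons. mt-Co1 turned to 0.0183 in knockout against control, -0.0260 in D489V against control and 0.0774 in knockout against D489V with quantile normalization. Without 1 sample it ran from -0.200 to 0.0889 in knockout against control, where mt-Rnr2 ran from -0.282 to 0.0453. In D489V against control, mt-Tp was -0.0168 with array weights and ran from -0.265 to 0.405 without 1 sample. What causes these shifts was not tested.

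Over all genes, the 1 call in knockout against control became 2 with the column total, 2 with the total of other genes, 3 with quantile normalization, 16 in one fit of all samples and 1 to 7 without 1 sample (7 without knockout 2, 4 without control 5, 2 without knockout 3, control 3 or control 4). The 9 calls in D489V against control became 19 with a pseudocount of 5, 4 with a mean of at least 50, 16 with quantile normalization, 21 with the robust fit, 86 with array weights, 1 in one fit and 2 to 26 without 1 sample (26 without D489V 3, 15 without control 3, 2 to 4 without each other sample but control 5). The 3181 calls in knockout against D489V ran from 1398 (without D489V 1) to 3686 without 1 sample and reached 4458 with array weights. Same-numbered samples did not deviate together (correlations of -0.21 to 0.24, -0.40 to 0.39 and -0.11 to 0.10), and the replicate block called no mitochondrial gene and 1, 7 and 2208 genes in all. Tests on read counts were not run.

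For the lists in knockout against D489V, the 6 calls in maintenance and transcription became 3 with no filter, either total or the block and 3 to 8 without 1 sample. The 10 in RNA processing became 5 with no filter, 6 with the total of other genes, 5 in one fit, 4 with the replicate block and 2 to 14 without 1 sample. The 6 in biogenesis became 2 in one fit and 1 to 7 without 1 sample. The 4 in respiratory subunits became 7 with the column total, 8 with the total of other genes, 7 with quantile normalization, 10 with array weights and 3 to 9 without 1 sample.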
